A study of Mus musculus with 12 samples.

Results

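Fam20a and Trabd2b are little-studied genes of the secretory pathway that stood high among the TGFb responses of a mouse hepatic stellate cell line. They were chosen from the deposited expression table because Fam20a was among the largest rises under TGFb and Trabd2b among the largest falls that an siRNA against Bmal1 caused under TGFb. They are 2 of 15720 gene identifiers in the table, and both were among the 11208 genes that passed the filter on low values. Those selecting differences are given below as descriptions without a test, and tests are given only for the siRNA under vehicle and, for Fam20a, for TGFb after Bmal1 siRNA.

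EMS404 is a hepatic stellate line from C57Bl6 mice, immortalised with SV40 and expressing human TLR4, and all 12 libraries came from it. Transfection was with a scrambled siRNA or with one that targets Bmal1, a core clock regulator whose gene symbol is Arntl. Treatment began 48 h after transfection and lasted 24 h, with vehicle or TGFb at 10 ng/mL. There are 4 groups of 3 libraries: scrambled siRNA with vehicle, scrambled siRNA with TGFb, Bmal1 siRNA with vehicle and Bmal1 siRNA with TGFb. The comparisons ask how TGFb changed each gene and how the response differed after Bmal1 siRNA, in 1 immortalised line at 1 time point.

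FAM20A is a pseudokinase of the secretory pathway. It pairs with FAM20C, the Golgi kinase that phosphorylates many secreted proteins, and is best known from enamel formation and from mineral deposition in soft tissue. FAM20B, the other close relative, is a sugar kinase that phosphorylates a xylose in the linker through which glycosaminoglycan chains are attached to proteoglycans. TRABD2B, also called TIKI2, is a membrane-anchored metalloprotease that cleaves the amino end of Wnt ligands and so lowers their signalling. The word secreted therefore fits the pathway through which both products pass, and no protein was measured here.

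On mm10, Fam20a (ENSMUSG00000020614) lies on the minus strand at chr11:109669749-109722279, with 4 annotated transcripts and 3634 merged exonic bases. Trabd2b (ENSMUSG00000070867) lies on the plus strand at chr4:114406724-114615098, with 1 transcript and 6617 exonic bases. Neither shares exon bases with another annotated gene. RefSeq's promoter table (GRCm38.p6) held an entry for 1 of the 2 genes, Fam20a. The 209 bases directly upstream of its annotated first exon, chr11:109722280-109722488 on the minus strand, are shown because the Fam20a transcript moved under TGFb and after Bmal1 siRNA.

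Fam20a upstream: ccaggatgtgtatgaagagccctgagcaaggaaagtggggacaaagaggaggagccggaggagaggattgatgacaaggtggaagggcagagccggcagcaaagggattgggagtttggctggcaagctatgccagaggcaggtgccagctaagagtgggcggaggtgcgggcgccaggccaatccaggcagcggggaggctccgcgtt

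The GC content of this stretch was 61.7%, against a median of 52.4% over all promoter windows. Both strands of the 250 bases before the RefSeq start were searched for the E-box CACGTG, the sequence that BMAL1 and its partner bind; for the Smad palindrome GTCTAGAC and the shorter Smad element CAGAC, neither of which contains the other; and for the AP-1 element TGANTCA. None of the 4 motifs was found in the Fam20a window, so no letters are in capitals. Of 32851 windows of the same length, 6.02% held CACGTG, 0.167% GTCTAGAC, 42.2% CAGAC and 6.75% TGANTCA. The windows of Fam20b and Fam20c held none of the motifs either.

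Values are FPKM (fragments per kilobase of transcript, scaled to library size), and differences were taken after adding 1 and converting to log2, so that a fold change of a gene near 1 FPKM appears smaller than it is. FPKM totals ran from 445472 to 483957, and without read numbers the counting error is unknown. Triplicates are biological in the submitters' description; since nothing names separate cultures, p-values measure the spread between these libraries, and part of it may be technical. Replicate 2 of Bmal1 siRNA with TGFb lay farthest from the other libraries of its group, with a root mean square log2 difference of 0.211 over 11208 genes against 0.101 to 0.172 for the other libraries. Arntl, the target, averaged 5.18 FPKM with scrambled siRNA and 3.79 with Bmal1 siRNA under vehicle (log2 -0.37, limma adjusted p = 0.049), a call that held in 10 of 23 alternative fits. Under TGFb it averaged 10.7 and 4.35 FPKM (log2 -1.13, adjusted p = 1.38e-06). Of 9 stellate and mesenchymal markers 6 averaged at least 1 FPKM, among them Pdgfrb, Hand2 and Col1a1, while Lrat and Reln have no line in the table and Des stood at 0.52 to 1.23 FPKM. Summed hepatocyte and endothelial markers did not exceed 0.54 and 0.27 FPKM in any library. Cholangiocyte markers summed to at most 9.65 FPKM, with Krt19 up to 5.61, and leukocyte and Kupffer markers to at most 4.71, mostly Cd68. The 4 mesothelial markers summed to 243 to 287 FPKM with scrambled siRNA and vehicle and to 74.3 to 102 with TGFb. After Bmal1 siRNA they summed to 278 to 304 and 76 to 152. With scrambled siRNA the largest part was Upk3b, at 164 to 188 FPKM under vehicle and 33.3 to 46.2 under TGFb. Gpm6a and Wt1 were also lower with TGFb, whereas Msln stood at 9.8 to 12.3 under vehicle and 12.4 to 20.8 under TGFb. The part of these markers in the results below was not tested.

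Fam20a was low under vehicle and high under TGFb, most of all with scrambled siRNA. With scrambled siRNA and vehicle the 3 libraries held 2.05, 2.21 and 2.56 FPKM. With scrambled siRNA and TGFb they held 23.95, 27.77 and 29.55 FPKM. Every TGFb library was above every vehicle library, and the means of 2.27 ± 0.261 and 27.1 ± 2.86 FPKM (SD, n = 3) differed 11.9-fold. In bulk RNA, more cells with the transcript and more transcript per cell cannot be told apart. The log2 difference of 3.10 was rank 9 among the rises of 11208 genes, of which 20.3% had TGFb libraries wholly above the vehicle libraries. The genes directly above and below it were Nt5e at 3.19, which encodes the ectonucleotidase CD73, and Pkp1 at 2.87, which encodes a desmosomal plaque protein.

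After Bmal1 siRNA, Fam20a still rose with TGFb, from 2.54, 3.21 and 3.5 FPKM under vehicle to 13.28, 8.26 and 13.3 FPKM under TGFb. Again the groups did not overlap, and replicate 2 was the lowest of the TGFb libraries. The means of 3.08 ± 0.492 and 11.6 ± 2.9 FPKM (SD, n = 3) differed 3.77-fold, with a log2 difference of 1.61 (SE 0.150, 95% interval 1.28 to 1.93, limma adjusted p = 4.04e-05). An exact two-sided permutation test of 3 against 3 libraries gave p = 0.1, the smallest it can give. In this comparison 8.9% of all genes tested were called higher, and 17.6% had groups that did not overlap with TGFb above. The Bmal1 siRNA libraries with TGFb also entered the siRNA comparison under TGFb, which the selection looked at for falls.

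Under vehicle, the siRNA left Fam20a at overlapping levels. The mean was 1.36 times that with scrambled siRNA, a log2 difference of 0.31 (95% interval -0.01 to 0.64, adjusted p = 0.24, exact permutation p = 0.2). The scrambled vehicle libraries also entered the TGFb comparison that chose Fam20a. That choice favoured low values in them, which raises this difference, so its size and p-values are not free of the selection. Of all genes 0.66% were called in this comparison, 0.294% higher and 0.366% lower. Under TGFb, the mean after Bmal1 siRNA was 42.9% of that with scrambled siRNA (log2 -1.18, rank 55 among the falls), without overlap, as for 11% of all genes. Without the second TGFb library of both siRNAs this difference was -0.95.

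The gain in Fam20a FPKM under TGFb after Bmal1 siRNA was 34.4% of the gain with scrambled siRNA. In rising order, the groups were scrambled vehicle, Bmal1 siRNA vehicle, Bmal1 siRNA with TGFb and scrambled with TGFb. The vehicle groups overlapped, and the other neighbours in this order did not.

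Trabd2b was chosen for its fall under TGFb after Bmal1 siRNA, and its values under TGFb are given as a description of that choice. With scrambled siRNA the libraries held 3.56, 4.72 and 4.24 FPKM under vehicle. Under TGFb they held 15.23, 18.45 and 17.02 FPKM. The groups did not overlap, as for 20.3% of all genes with TGFb above. The means of 4.17 ± 0.583 and 16.9 ± 1.61 FPKM (SD, n = 3) differed 4.05-fold, with a log2 difference of 1.79 (rank 54 among the rises).

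After Bmal1 siRNA, Trabd2b stood at 3.52, 3.85 and 4.37 FPKM under vehicle and at 5.67, 2.94 and 4.53 FPKM under TGFb. The groups overlapped, and 1 TGFb library, replicate 2, was below all 3 vehicle libraries. The means of 3.91 ± 0.429 and 4.38 ± 1.37 FPKM (SD, n = 3) differed 1.12-fold. The log2 difference was 0.10, and -0.07 without replicate 1 of Bmal1 siRNA with TGFb. The planned test is not given, because the selection used the same TGFb libraries and favoured low values in them.

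Under vehicle, Trabd2b after Bmal1 siRNA was 93.8% of its level with scrambled siRNA (log2 -0.07, 95% interval -0.40 to 0.26, adjusted p = 0.807, exact permutation p = 0.6), and the groups overlapped. This difference was 0.00 without scrambled vehicle replicate 2 (adjusted p = 0.991). Under TGFb, Trabd2b after Bmal1 siRNA was 25.9% of its level with scrambled siRNA, without overlap, as for 11% of all genes. Its log2 difference of -1.76 was rank 10 among the falls. Its neighbours in that order were Apol9b at -1.80, an apolipoprotein L gene, and Crispld2 at -1.76, which encodes a secreted cysteine-rich protein. Without the second TGFb library of both siRNAs, the Trabd2b difference was -1.49. In the order of levels Bmal1 siRNA vehicle, scrambled vehicle and Bmal1 siRNA with TGFb all overlapped with their neighbours, and scrambled siRNA with TGFb stood alone above them.

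**Figure D1:**
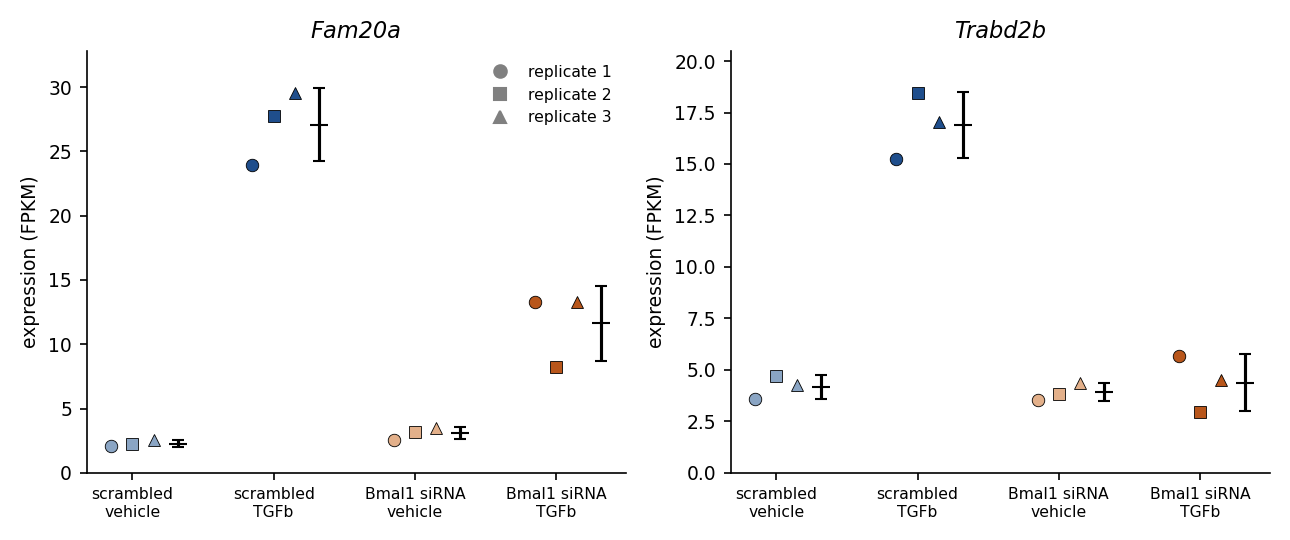
Expression of Fam20a and Trabd2b in FPKM (y axis, separate scales) in each of the 12 libraries by group (x axis); marker shapes are replicate numbers and bars are the mean ± SD of 3 libraries. Fam20a with TGFb sat at 23.95 to 29.55 after scrambled siRNA and 8.26 to 13.3 after Bmal1 siRNA, while Trabd2b with TGFb sat at 15.23 to 18.45 and 2.94 to 5.67.

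Set side by side, the log2 rise with scrambled siRNA and the rise after Bmal1 siRNA were 3.10 and 1.61 for Fam20a and 1.79 and 0.10 for Trabd2b. These comparisons share no libraries. The rise with scrambled siRNA and the fall under TGFb do share the scrambled TGFb libraries: they were 3.10 and -1.18 for Fam20a and 1.79 and -1.76 for Trabd2b. The log2 difference between the responses was -1.49 for Fam20a and -1.69 for Trabd2b; over all genes 14.4% were called on this difference. Over the 214 genes called and raised at least 2-fold with scrambled siRNA, the log2 rise after Bmal1 siRNA was a median of 34.9% of the rise with scrambled siRNA (quartiles 20% and 48.5%). The share was 51.8% for Fam20a and 5.65% for Trabd2b, which were ranks 171 and 35 from the lowest, and 40 of the genes had a share below 10%. This measure was chosen after values were seen and is a description. The 214 genes, and Fam20a, were picked for the rise that divides the share. Trabd2b was picked for low values in the Bmal1 siRNA libraries with TGFb, so its low share follows in part from the choice.

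**Figure D2:**
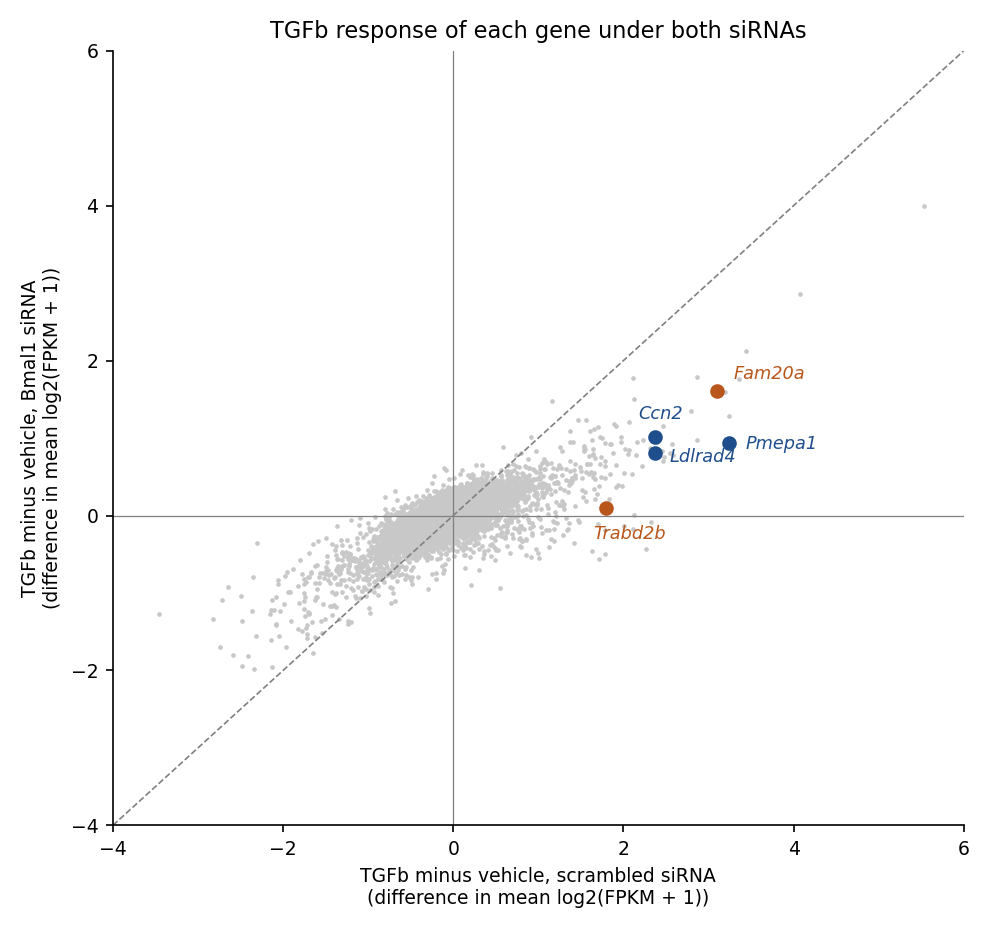
Each point is 1 of the genes tested: the difference in mean log2(FPKM + 1) between TGFb and vehicle with scrambled siRNA (x axis) and with Bmal1 siRNA (y axis), with equal values on the dashed line. Fam20a lies at 3.10 and 1.61 and Trabd2b at 1.79 and 0.10, both below the line like the 3 labelled Smad target genes in blue.

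The ratio of Fam20a to Trabd2b, which FPKM gives per length, also shifted between the groups. It averaged 0.549 ± 0.0716 with scrambled siRNA and vehicle and 1.6 ± 0.119 with TGFb (SD, n = 3). After Bmal1 siRNA it averaged 0.785 ± 0.0577 under vehicle and 2.7 ± 0.313 under TGFb.

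The close relatives of Fam20a kept to narrow ranges in the libraries in which Fam20a moved. Fam20b, the xylose kinase gene, ranged from 17.72 to 20.35 FPKM over all 12 libraries, and Fam20c, the Golgi kinase gene, from 6.16 to 7.94 FPKM. Neither was called in any of the 4 comparisons. For TGFb with scrambled siRNA the log2 differences were 0.07 for Fam20b (adjusted p = 0.278) and 0.03 for Fam20c (adjusted p = 0.76). The ratio of Fam20a to Fam20c, per length, therefore moved with Fam20a. It was 0.352 ± 0.0206 with scrambled siRNA and vehicle and 4.1 ± 0.301 with TGFb (SD, n = 3). After Bmal1 siRNA it was 0.422 ± 0.071 under vehicle and 1.68 ± 0.469 under TGFb. Fam20a was thus the lesser transcript of the pair in all 6 vehicle libraries and the greater in all 6 TGFb libraries, the lowest ratio being 1.16 in Bmal1 siRNA with TGFb replicate 2.

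**Figure D3:**
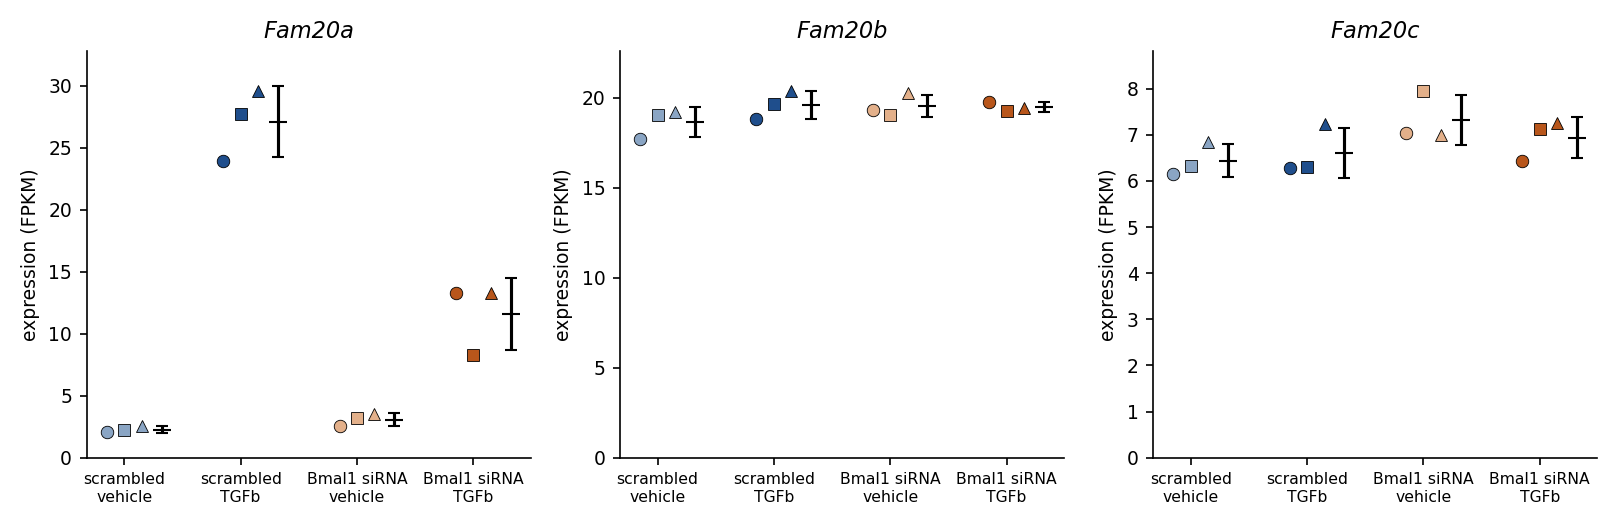
Expression of Fam20a, Fam20b and Fam20c in FPKM (y axes from 0, separate scales) in each library by group (x axis), with marker shapes for replicates 1 (circle), 2 (square) and 3 (triangle) and bars for the mean ± SD of 3 libraries. Fam20b stays at 17.72 to 20.35 and Fam20c at 6.16 to 7.94 in every library, whereas Fam20a spans 2.05 to 29.55.

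Beyond these, the list of FAM20-related kinases of the secretory pathway held 12 genes besides Fam20a, of which 9 were tested. With scrambled siRNA, TGFb raised 2 and lowered 4 of the 9, with a median log2 difference of 0.03. Over all genes 45.5% were called in this comparison, 16.4% higher and 29.1% lower, with a median of -0.05. The split of those calls moved with scaling, from 36.1% higher on the deposited scale to 49.8% with median-of-ratios scaling. Fam69a (also Dipk1a), a transmembrane kinase-like gene of the endoplasmic reticulum, rose from 4.71 ± 0.158 to 8.35 ± 0.58 FPKM (SD, n = 3; log2 0.71, SE 0.067, adjusted p = 2.51e-06). Fjx1, a relative of the Golgi kinase four-jointed, rose from 1.09 to 1.74 FPKM (log2 0.39, adjusted p = 0.000923).

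Larger changes were found among the genes that fell. Pkdcc, which encodes the secreted tyrosine kinase VLK, fell from 25.3 ± 2.78 to 9.08 ± 0.841 FPKM (SD, n = 3; log2 -1.38, SE 0.173, adjusted p = 2.69e-05). 1190002N15Rik (also Dipk2a) fell from 54.7 ± 3.84 to 23.0 ± 0.737 FPKM (SD, n = 3; log2 -1.21, SE 0.084, adjusted p = 1.66e-07). Fam69b and Pomk, the kinase gene that acts on dystroglycan's sugar chain, fell by 0.45 and 0.20 on the log2 scale, the call of Pomk being lost with scaling to equal totals (adjusted p = 0.0503). Fam198b (also Gask1b) was not called in any comparison and ranged from 15.81 to 21.8 FPKM.

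After Bmal1 siRNA, TGFb raised 1 and lowered 2 of the 9, of 19% called over all genes. 1190002N15Rik fell by 0.40 (adjusted p = 0.00529). Pkdcc fell by 0.71 (adjusted p = 0.0122), with adjusted p-values of 0.0578 without Bmal1 siRNA with TGFb replicate 3 and 0.0504 without Bmal1 siRNA vehicle replicate 2. Fjx1 was higher by 0.26 (adjusted p = 0.0308), a call that held in 16 of 22 alternative fits. Between the siRNAs under TGFb, where 23.2% of all genes were called, 1190002N15Rik was higher after Bmal1 siRNA by 0.77 (adjusted p = 4.68e-05). The calls of Fam69a, Fam69b and Fjx1 in that comparison (-0.24, 0.34 and -0.24) held in 19 of 23, 14 of 23 and 15 of 22 alternatives.

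Of 13 listed matrix proteins that are phosphorylated or bind mineral, 4 were tested, and with scrambled siRNA TGFb raised 1 and lowered 2 of them, where 16.4% of all genes rose and 29.1% fell; counts this small are not read against that share. Spp1, which encodes the phosphoprotein osteopontin, rose from 70.9 ± 6.09 to 207 ± 7.56 FPKM (SD, n = 3; log2 1.53, SE 0.176, adjusted p = 1.24e-05). Mgp, a mineralisation inhibitor, fell from 21.7 ± 4.86 to 3.58 ± 0.926 FPKM (SD, n = 3; log2 -2.30, SE 0.297, adjusted p = 3.39e-05). Ahsg, which encodes the mineral-binding fetuin-A, fell from 2.59 to 0.07 FPKM (log2 -1.74, adjusted p = 3.53e-05). For Spp1 the TGFb libraries lay wholly above the vehicle libraries, as for 20.3% of all genes. For Mgp and Ahsg they lay wholly below, a pattern whose share over all genes was not counted.

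After Bmal1 siRNA, Spp1 rose with TGFb from 74.1 to 144 FPKM (log2 0.90, adjusted p = 0.00339). Mgp averaged 16.9 ± 2.61 and 14.3 ± 8.28 FPKM (SD, n = 3; log2 -0.36, adjusted p = 0.44), its TGFb libraries spreading from 7.38 to 23.47. Under TGFb, Mgp was higher after Bmal1 siRNA than after scrambled siRNA by 1.62 (adjusted p = 0.00202).

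Of 12 regulators of mineralisation, 8 were tested, and 4 rose and 3 fell with TGFb and scrambled siRNA. Over all genes 16.4% rose and 29.1% fell, and counts this small are not read against those shares. Ank, which encodes a pyrophosphate exporter, rose from 1.26 to 4.5 FPKM (log2 1.28, adjusted p = 4.4e-07). Slc20a1, a phosphate transporter gene, rose from 14.1 to 21.9 FPKM (log2 0.61, adjusted p = 5.87e-05). Fgf23, the phosphate-lowering hormone gene, averaged 1.18 FPKM under vehicle and 0.0567 under TGFb (log2 -1.03). After Bmal1 siRNA the same comparison for Ank gave 0.84 (adjusted p = 0.000147) and for Fgf23 -0.94. Fgf23 passed the filter of 0.5 FPKM only through its vehicle levels, so its calls, which are among these counts, are not read as results.

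In the linker pathway that FAM20B serves, 8 of 10 listed genes were tested. TGFb raised 2 and lowered 1 with scrambled siRNA (median log2 -0.08), where 16.4% of all genes rose and 29.1% fell. Pxylp1, which encodes the phosphatase that removes the phosphate FAM20B adds, fell from 11.2 ± 0.721 to 4.73 ± 0.593 FPKM (SD, n = 3; log2 -1.09, SE 0.115, adjusted p = 5.91e-06). B4galt7, an enzyme that builds the linker, rose by 0.41 (adjusted p = 0.000577), and Extl3 by 0.21 (adjusted p = 0.00849). B3galt6, another linker enzyme gene, was called higher with TGFb after Bmal1 siRNA (log2 0.26, adjusted p = 0.0412), a call that held in 13 of 23 alternatives. After Bmal1 siRNA, Pxylp1 averaged 9.64 and 8.21 FPKM (log2 -0.22, adjusted p = 0.206), with a level under TGFb that was higher than with scrambled siRNA by 0.67 (adjusted p = 0.00126).

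For Trabd2b, the relatives and the other extracellular Wnt inhibitors were mostly low. Of 18 listed genes 5 were tested, 8 were below the filter and 5, among them Trabd2a, have no line in the table. Trabd, a relative that shares the TraB domain, ranged from 37.0 to 45.57 FPKM and was not called in any comparison. The ratio of Trabd2b to Trabd, per length, was 0.103 ± 0.022 with scrambled siRNA and vehicle, 0.419 ± 0.0363 with TGFb, and 0.105 ± 0.0107 and 0.111 ± 0.0336 after Bmal1 siRNA (SD, n = 3). Trabd2b under TGFb, at 15.23 to 18.45 FPKM, was above the other 4 tested genes of the list in the same libraries, of which Kremen1 was the highest at 9.87 to 10.49.

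With scrambled siRNA, TGFb raised 1 and lowered 3 of the 5 (median log2 -0.53), where 16.4% of all genes rose and 29.1% fell. Kremen1, which encodes a co-receptor for Dickkopf proteins, rose from 8.1 ± 0.108 to 10.1 ± 0.331 FPKM (SD, n = 3; log2 0.29, adjusted p = 0.00123). Apcdd1, a membrane-bound Wnt inhibitor, fell from 3.29 to 1.98 FPKM (log2 -0.53, adjusted p = 0.00261). The secreted Frizzled-related genes Frzb and Sfrp4 were below 1 FPKM throughout this comparison. Frzb averaged 0.613 and 0.0867 (log2 -0.57), and Sfrp4 averaged 0.837 and 0.14 (log2 -0.69). Both passed the filter of 0.5 FPKM only through their vehicle levels, so their calls here, which are among these counts, are not read as results. Under TGFb, Apcdd1, Frzb and Sfrp4 were called higher after Bmal1 siRNA by 0.47, 0.35 and 0.43, but none of the 3 was called when only the groups compared were fitted (adjusted p = 0.0553, 0.0916 and 0.0704). Without the second TGFb library of both siRNAs 1 of the 3 was called, Apcdd1 giving 0.36 (adjusted p = 0.0871) and Frzb 0.23 (adjusted p = 0.129).

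**Figure D4:**
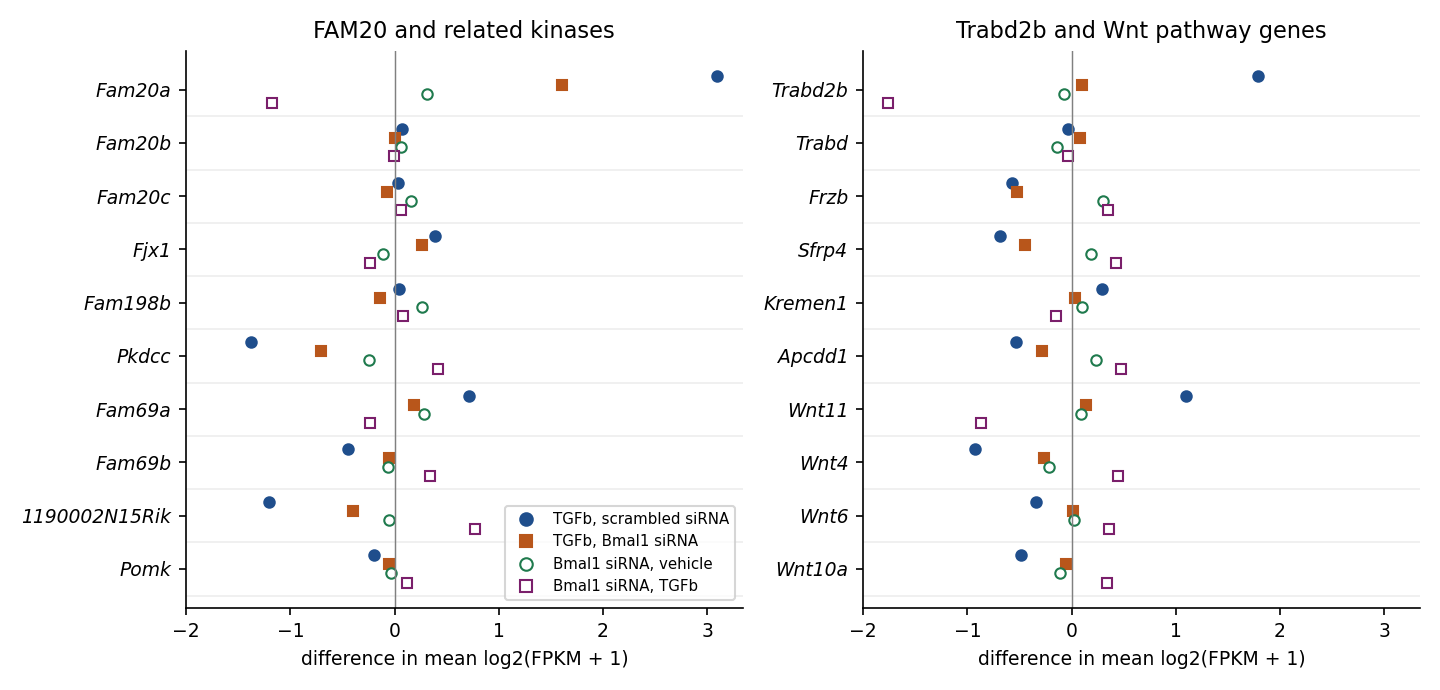
Differences in mean log2(FPKM + 1) (x axis) in the 4 comparisons for FAM20-related kinase genes (left) and for Trabd2b with Wnt inhibitors and ligands (right); filled symbols are TGFb against vehicle, open symbols Bmal1 against scrambled siRNA. Fam20b, Fam20c and Trabd lie near 0 in all 4 comparisons, while Fam20a reaches 3.10 and Trabd2b 1.79 with TGFb and scrambled siRNA.

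The listed Wnt ligand genes were also mostly low. The highest was Wnt5a, named after values were seen, at 2.56 to 4.04 FPKM over all libraries. Which ligands TRABD2B cleaves in these cells was not measured. Of 19 listed ligand genes 7 were tested. With scrambled siRNA TGFb raised 3 and lowered 3, where 16.4% of all genes rose and 29.1% fell. The count raised held in 8 of 23 alternatives and ran from 1 to 5. It was 1 without scrambled TGFb replicate 1 or without scrambled vehicle replicate 2. Wnt11, a ligand of the non-canonical pathway, averaged 0.153 ± 0.105 and 1.47 ± 0.132 FPKM with scrambled siRNA and 0.23 ± 0.123 and 0.357 ± 0.13 FPKM after Bmal1 siRNA (vehicle, then TGFb; SD, n = 3). It passed the filter of 0.5 FPKM only through the scrambled TGFb group, so its calls, which are among these counts, are not read as results. Wnt4 fell from 2.33 to 0.753 FPKM (log2 -0.93, adjusted p = 0.000108), and after Bmal1 siRNA averaged 1.86 and 1.45 FPKM (log2 -0.26, adjusted p = 0.205). Wnt10a was below 1 FPKM in all libraries, averaging 0.737 FPKM with scrambled siRNA and vehicle and 0.24 with TGFb. It passed the filter only through the scrambled vehicle group, so its calls, also among these counts, are not read as results. Wnt6 fell by 0.34 (adjusted p = 0.0119; 0.0521 without scrambled TGFb replicate 1).

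Among 24 receptors, agonists and secretion factors 18 were tested, of which 6 rose and 8 fell with TGFb and scrambled siRNA, and 3 rose and 7 fell after Bmal1 siRNA. Over all genes 16.4% rose and 29.1% fell in the first comparison, and 8.9% rose and 10.1% fell in the second. The receptor genes Fzd5 and Ror1 fell by 1.07 and 1.03 with scrambled siRNA and by 0.82 and 1.04 after Bmal1 siRNA. Rspo1, a secreted agonist, fell by 0.74 and 0.75, and the receptor gene Fzd4 by 0.86 and 0.77. The adjusted p-values of these differences ran from 6.98e-07 to 0.000886.

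Of 10 feedback and target genes of the beta-catenin pathway 6 were tested. Under TGFb with scrambled siRNA 3 were higher and 2 lower, where 16.4% of all genes rose and 29.1% fell. The transcription factor gene Lef1 rose from 0.313 ± 0.0981 to 3.17 ± 0.343 FPKM (SD, n = 3; log2 1.67, adjusted p = 1.14e-06). Tcf7, its relative, rose by 0.84 (adjusted p = 8.6e-06), and Myc, a growth-promoting transcription factor gene, by 0.63 (adjusted p = 0.0026). Ccnd1, the cyclin D1 gene, fell from 29.7 ± 0.731 to 6.78 ± 0.735 FPKM (SD, n = 3; log2 -1.99, adjusted p = 7.54e-08). Axin2, Nkd2, Sp5 and Rnf43 were below the filter.

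The direct Smad targets give the measure of TGFb signalling beside which both genes can be read. Of 12 listed genes 11 were tested, and with scrambled siRNA 10 rose and 1 fell (median log2 0.83), where 16.4% of all genes rose and 29.1% fell (median -0.05). Pmepa1, which encodes an inhibitor of TGFb signalling, rose from 15.7 ± 0.667 to 157 ± 8.75 FPKM (SD, n = 3; log2 3.24, SE 0.191, adjusted p = 4.8e-08). After Bmal1 siRNA, Pmepa1 rose from 15.6 to 32.3 FPKM (log2 0.93, adjusted p = 0.00452).

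After Bmal1 siRNA 6 of the 11 were called higher and 1 lower (median 0.19), where 8.9% of all genes were called higher and 10.1% lower. Of those higher, 2 were called without Bmal1 siRNA with TGFb replicate 3, and 3 without Bmal1 siRNA vehicle replicate 1 or replicate 2. Under TGFb 9 of the 11 were lower after Bmal1 siRNA than after scrambled siRNA (median -0.97), where 7.16% of all genes were called lower. The share of higher genes among all calls in this last comparison was 69.1% on the deposited scale and 44.9% with median-of-ratios scaling. The log2 difference of 1.61 for Fam20a after Bmal1 siRNA was above those of Pmepa1, Ldlrad4 and Ccn2, which were 0.93, 0.80 and 1.01, and that of Trabd2b was below them; these orders were not tested.

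The genes most like each member over the 12 libraries, by Pearson r of log2(FPKM + 1), are named as a description. The libraries share 4 groups, so r mostly follows the group means. For Fam20a they were Anpep (r = 0.9971), which encodes an aminopeptidase, Mmp2 (0.9963), a matrix metalloproteinase gene, Fbln2 (0.9963), which encodes the matrix protein fibulin-2, Insyn1 (0.9938) and Tgif1 (0.9937), a transcriptional repressor gene of the TGFb pathway. Mmp2 averaged 7.1, 55.4, 8.56 and 23.5 FPKM in scrambled vehicle, scrambled TGFb, Bmal1 siRNA vehicle and Bmal1 siRNA TGFb, and Anpep averaged 3.96, 13.5, 4.29 and 8.43. That these genes share its pattern over the groups follows from how they were picked.

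For Trabd2b the nearest genes were Ppp1r13l (r = 0.982), which encodes an inhibitor of p53, Limk2 (0.9806), a kinase gene of actin turnover, Olr1 (0.9794), which encodes a receptor for oxidised lipoprotein, Hes1 (0.9744), a repressor gene of the Notch pathway, and Tnfrsf13c (0.9742). Limk2 averaged 15.1, 22.6, 15.3 and 16.4 FPKM in the same order of groups, and Ppp1r13l 19.0, 48.5, 20.6 and 21.8. Fam20a and Trabd2b themselves had r = 0.8271, which placed Trabd2b at rank 912 for Fam20a and Fam20a at rank 516 for Trabd2b.

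**Figure D5:**
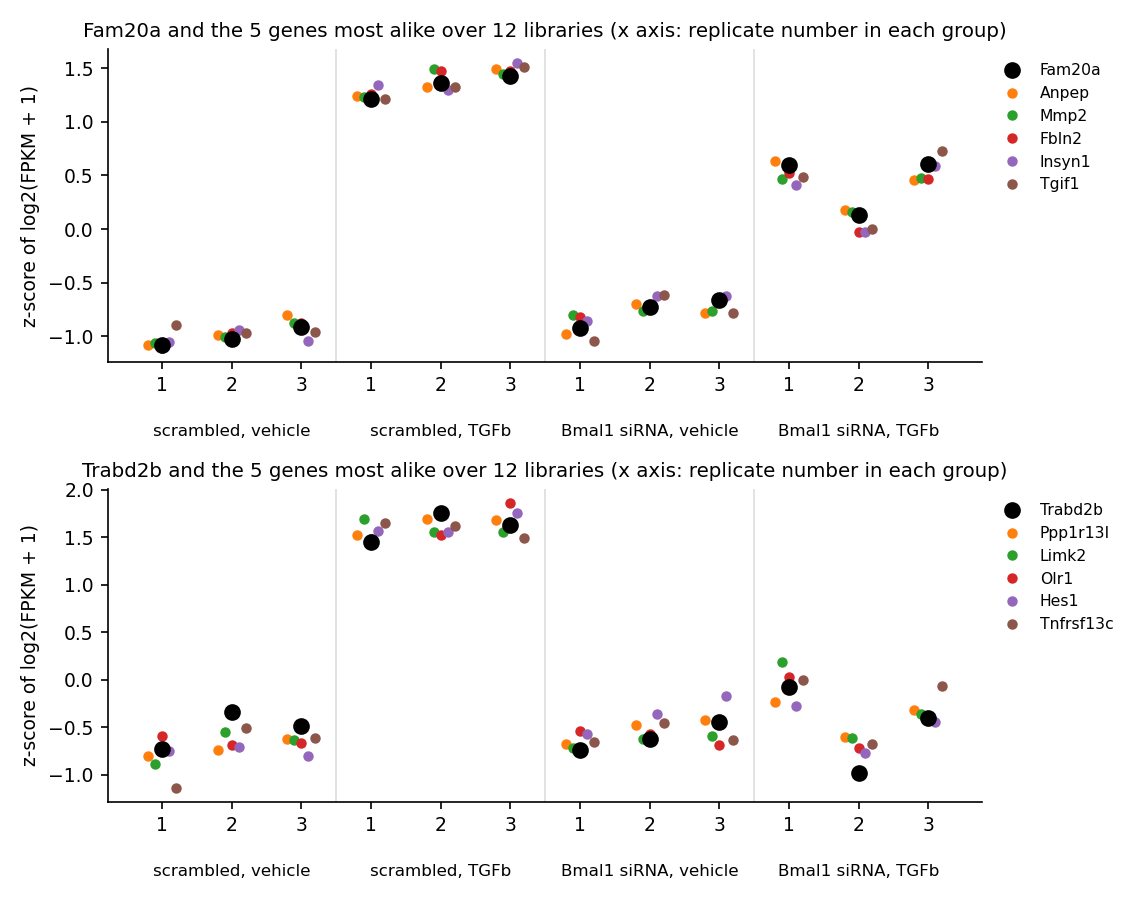
Expression of Fam20a (top) and Trabd2b (bottom), in black, with the 5 genes most alike to each, as z-scores of log2(FPKM + 1) over 12 libraries (y axis) by library (x axis, replicate number within each group). The sets were picked for following the black points, from r = 0.9937 to 0.9971 for Fam20a and from 0.9742 to 0.982 for Trabd2b.

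Neighbouring genes on the chromosome are given as a description. Where tested, they had smaller TGFb differences with scrambled siRNA than Fam20a and Trabd2b. Both of these were chosen for large differences, so that order follows largely from the choice. Prkar1a, which encodes a regulatory subunit of protein kinase A, ends 0.1 kb from Fam20a and ranged from 111.13 to 125.62 FPKM, with no call in any comparison. Wipi1, an autophagy gene 57.8 kb away, rose from 22.6 ± 1.7 to 34.0 ± 1.88 FPKM with TGFb and scrambled siRNA (SD, n = 3; log2 0.57, adjusted p = 4.56e-06). After Bmal1 siRNA it averaged 28.6 and 31.2 FPKM (log2 0.12, adjusted p = 0.163). Its call for the siRNA under vehicle (log2 0.33, adjusted p = 0.0291) held in 15 of 23 alternatives. The other 4 neighbours of Fam20a (Arsg, 1700012B07Rik, Abca8b and Abca8a) were below the filter, with at most 0.85 FPKM in any library. Of the 6 nearest protein-coding genes of Trabd2b only Foxd2, 291.2 kb away, has a line in the table; it ranged from 1.28 to 1.9 FPKM and was not called.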

How the data were processed

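Total RNA of 12 libraries (4 groups of 3) was sequenced; groups were taken from the sample titles. RNA below an integrity number of 6.0 was not used and 1 of 2 kits was chosen by abundance, per the labels' protocols. Values were deposited by the authors as FPKM, per the file headers, in 1 table. The tools RSEM, DESeq2, Bowtie2 2.2.5 and HISAT2 2.0.4 and the build mm10 appear in the submitters' processing notes without roles. The sources used here do not give annotation version, strand use or read numbers. Of 16290 lines, 555 without an identifier (1.304% to 1.464% of FPKM) and 15 repeats were left out, leaving 15720; GENCODE M21 matched 15694.

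With limma 3.58.1 (R 4.3.3), log2(FPKM + 1) was modelled by group means over 12 libraries, with the prior variance following mean expression; residual degrees of freedom were 8 and prior degrees 5. The 11208 genes averaging 0.5 FPKM or more were tested (two-sided) and called where the Benjamini-Hochberg adjusted p, over all of them, was below 0.05. The fits were tested on simulated data. The members, gene lists and tests were chosen with earlier results of these data known. Genes named were both members, Arntl, every tested gene of the FAM20 and Wnt inhibitor lists, up to 4 called genes of each other list with the largest differences, the 5 most alike per member, neighbours in rank, and 3 neighbouring genes on each side; 1 gene that meets this rule is not reported here. Alternatives were other pseudocounts, filters and scalings, limma without trend, only the groups compared, the replicate block, each library left out, and both second TGFb libraries left out.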

Additional observations from a re-analysis of the deposited data

Results flagged for a closer look

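Under limma's interaction test, 14.4% of all 11208 genes tested had a TGFb response that differed between the siRNAs. Among the genes named from the lists, together with Arntl and the chromosomal neighbours, 16 did. Many of them were named for large called differences in these data, so this count is not set against that share. The values given are differences on the log2 scale, Bmal1 siRNA minus scrambled siRNA. The members themselves were chosen on the contrasts this test is built from and are not among them.

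Responses that were lower after Bmal1 siRNA than with scrambled siRNA included the Smad targets Pmepa1 at -2.30 (adjusted p = 0.000181), Ldlrad4 at -1.57 (0.000325) and Ccn2 at -1.36 (0.02). Nt5e, next to Fam20a in rank, stood at -1.60 (adjusted p = 0.00388), Lef1 at -1.20 (0.00238) and Wnt11 at -0.96 (0.00102), the last passing the filter only through its level in scrambled TGFb. Arntl, the siRNA target, stood at -0.77 (adjusted p = 0.000526), the kinase gene Fam69a at -0.52 (0.00395), the neighbour Wipi1 at -0.45 (0.00386) and Slc20a1 at -0.41 (0.0365).

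Among the genes called here, those lowered by TGFb with scrambled siRNA had positive differences. The response with scrambled siRNA enters both values, which favours opposite signs. Ror1 and Rspo1, also lowered, stood at -0.02 and -0.01 and were not called. Mgp stood at 1.95 (adjusted p = 0.00918), Pxylp1 at 0.87 (0.0042), Ccnd1 at 0.84 (0.00729) and 1190002N15Rik at 0.82 (0.00079). Wnt4 stood at 0.66 (adjusted p = 0.0366) and Wnt10a at 0.44 (0.0349), the last passing the filter only through its level in scrambled vehicle. Slc20a1, Wnt4 and Wnt10a each lost the call in 10 alternatives, most of them with 1 library left out, and Ccn2 in 1, with no filter on low values (adjusted p = 0.0521).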

How the results depend on the processing

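Over 23 alternatives the log2 rise of Fam20a after Bmal1 siRNA ran from 1.03 to 1.86 and kept its call (adjusted p from 1.55e-07 to 0.00249). Its difference under vehicle ran from 0.15 to 0.42 (adjusted p from 0.0786 to 0.586). Trabd2b after Bmal1 siRNA ran from -0.07 to 0.31, with no test, and under vehicle from -0.16 to 0.00 (adjusted p from 0.637 to 0.991); with 1 library left out the ranges were -0.07 to 0.31 and -0.16 to 0.00, the signs turning as given above. The descriptive log2 rise of Fam20a with scrambled siRNA was 3.52 with a pseudocount of 0.1 and 2.14 with a pseudocount of 5, and that of Trabd2b 1.25 with a pseudocount of 5. With a pseudocount of 5 the siRNA difference of Trabd2b under TGFb was -1.23, and the differences between responses were -1.11 for Fam20a and -1.19 for Trabd2b. Without both second TGFb libraries the siRNA differences under TGFb were -0.95 and -1.49, and the differences between responses -1.26 and -1.42; the cause was not tested.

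Counts of called genes moved more. TGFb after Bmal1 siRNA called 2128 genes, 3240 without both second TGFb libraries, and 1166 to 3260 with 1 library left out. The siRNA under vehicle called 74, with 7 without a filter, 229 when fitted on its own groups, 407 when both second TGFb libraries were left out, and 2 to 473 with 1 library left out; 61.2% of its calls were higher with scaling to equal totals against 44.6%. The siRNA under TGFb called 2596, with 1542 when fitted on its own groups and 1492 when both second TGFb libraries were left out. Libraries with the same number deviated together in part of the pairs (r from -0.161 to 0.475, 10 of 18 at or under 0.1). Libraries with different numbers were not compared, so whether the numbers pair them in part is not settled, and the main fit did not use the numbers. With the replicate block the siRNA under vehicle called 540 genes, and no call of a member changed: 1.61 (adjusted p = 3.51e-05) and 0.31 (0.168) for Fam20a, and -0.07 (0.808) for Trabd2b under vehicle. Of 104 other named differences that were called, 75 kept the call in every alternative, 29 lost it in at least 1 and 0 changed sign. Counts behind each FPKM are unknown, which limits genes near or below 1 FPKM most.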
